A study of Homo sapiens with 20 samples.

Results

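The ATF4 and CHOP transcription factor circuit was followed through 9 genes, *ATF4*, *ATF3*, *DDIT3* (which encodes CHOP), *ATF5*, *TRIB3*, *CEBPB*, *CEBPG*, *NUPR1* and *CHAC1*, out of 36346 gene names in the values deposited for 20 RNA-seq libraries. The 9 genes were chosen from measured values of these same libraries, with the difference between silenced and control cells already known, so their values in that comparison are given as a description. The fit of all genes covers that comparison too, and its calls among the members are counted beside the share of all genes called, with nothing read from them. All 9 names were found in every library, each on 1 row. *ATF4*, *ATF3*, *DDIT3* and *CHAC1* also stand among the genes that the study itself listed from these libraries, so 4 of the 9 are not an independent choice.

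The libraries came from HT29 and SW480, established human colorectal cancer cell lines in which *POLR1D*, whose protein is shared by RNA polymerase I and RNA polymerase III, lies on an amplified segment (HT29) or on a gained chromosome (SW480). The cells received a scrambled control siRNA (SCR) or an siRNA against *POLR1D*, siPOLR1D-2 or siPOLR1D-3, by lipid transfection, and RNA was taken 72 h later, so that the controls carry a transfection as well. In HT29 there were 4 SCR, 2 siPOLR1D-2 and 2 siPOLR1D-3 libraries, and in SW480 there were 6 SCR, 3 siPOLR1D-2 and 3 siPOLR1D-3 libraries. Silencing lowers the transcript and does not delete the gene, each cell line is a single model, and the labels do not say whether the libraries of a group came from separate cultures, so the spread between them may be technical. Libraries that received either siRNA against *POLR1D* are called silenced below. Values are normalized read counts, set separately for each cell line, and are compared only within a line.

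ATF4 is a basic leucine zipper (bZIP) transcription factor whose protein is made mainly when the translation initiation factor eIF2 is phosphorylated by stress kinases, a program known as the integrated stress response. ATF4 activates genes of amino acid uptake, amino acid synthesis and tRNA charging, and it activates further regulators, among them CHOP, ATF3, ATF5 and TRIB3, some of which act with ATF4 and some of which restrain it. ATF4 binds DNA as a dimer with C/EBP family proteins at a composite C/EBP-ATF element, and in tumor cells the circuit is known for its induction by lack of amino acids or glucose and by stress of the endoplasmic reticulum.

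Promoter windows of RefSeq (build GRCh38.p14, from 250 bases before to 50 bases after a transcription start) were matched by symbol for 8 of the 9 members, all but *NUPR1*, and were searched for the composite element as the letters TGATGNAA on both strands. Windows of 3 of these 8 members held it, *ATF3*, *CEBPG* and *CHAC1*, whereas 4.46% of 27305 genes and 3.62% of all 35116 windows held it. All of the 8 but *CHAC1* had more than a single window, more than most genes, so the share of genes is not a like background. *ATF3* and *CEBPG* each had a further window without the element. The letters TGACGTCA, the palindromic ATF/CREB site, which are distinct from those of the composite element, were found in windows of 0 of the 8 members and in 1.85% of all windows. A match describes these letters and does not show that a factor binds there. The 3 windows are printed below, 5′ to 3′ on the strand of the gene, with the match in capitals. *ATF4*, *DDIT3* and *TRIB3*, without a match in these windows, were also lower in most silenced libraries. An element outside the windows would not have been found, and the part of the element in the results was not tested. The window of *ATF3* is chr1:212565157-212565456 (plus strand), with the match at an offset of -191 from the start site. The window of *CEBPG* is chr19:33373863-33374162 (plus strand, offset -42). The window of *CHAC1* is chr15:40953221-40953520 (plus strand, offset -209), where the element reads on the opposite strand.
ATF3: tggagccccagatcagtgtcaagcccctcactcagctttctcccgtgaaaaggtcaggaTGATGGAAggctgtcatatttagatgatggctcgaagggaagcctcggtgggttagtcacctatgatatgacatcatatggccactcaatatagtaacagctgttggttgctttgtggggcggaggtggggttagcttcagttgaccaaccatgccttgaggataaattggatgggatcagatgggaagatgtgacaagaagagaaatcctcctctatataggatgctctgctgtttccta
CEBPG: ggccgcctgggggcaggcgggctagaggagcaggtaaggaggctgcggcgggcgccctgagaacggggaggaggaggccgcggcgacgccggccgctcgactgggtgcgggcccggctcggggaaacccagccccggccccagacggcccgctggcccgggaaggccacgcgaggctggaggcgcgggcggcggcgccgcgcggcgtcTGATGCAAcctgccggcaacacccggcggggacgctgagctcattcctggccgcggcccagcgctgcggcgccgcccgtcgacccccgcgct
CHAC1: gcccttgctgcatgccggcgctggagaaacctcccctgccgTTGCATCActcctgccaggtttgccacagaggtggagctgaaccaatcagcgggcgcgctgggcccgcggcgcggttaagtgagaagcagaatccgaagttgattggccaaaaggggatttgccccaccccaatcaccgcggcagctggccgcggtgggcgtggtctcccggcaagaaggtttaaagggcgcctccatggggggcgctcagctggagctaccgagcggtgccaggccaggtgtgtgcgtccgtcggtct

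*POLR1D* itself was lower in every silenced library than in any SCR library of its line. In HT29 it stood at 5048 ± 699.7 normalized reads (SD, n = 4) in SCR and at 3078 ± 452 (SD, n = 4) in silenced libraries, and in SW480 at 2116 ± 281 (SD, n = 6) and 1036 ± 183 (SD, n = 6). Reads per library, estimated from the most frequent low value, were between 13500000 and 22800000 in HT29 and between 18700000 and 27600000 in SW480. Some libraries stood apart within their group. In HT29 the first principal component of all genes tested (43.3% of the variance) set SCR replicate 1 apart, and to a lesser degree SCR replicate 2. In SW480 it (42.0%) placed SCR replicates 1 to 3 and siPOLR1D-2 replicates 1 and 2 on one side and the other 7 libraries on the second, so that all siPOLR1D-3 libraries lay on the second side. The sides were drawn from these same values. SCR replicate 1 (score 14.1) lay between them, with the nearest scores at 52.7 and -21.8. The first side held no siPOLR1D-3 library, so its values cannot be told apart from the siRNA or from its fewer libraries. Epithelial markers were present in both lines, with a summed value of 7 genes between 210149 and 251175 in HT29 and between 131802 and 259882 in SW480, although *CDX2* stayed between 0 and 7.91 in HT29, where it moved with the groups from 0.186 ± 0.228 among the controls to 5.98 ± 1.91 among the silenced libraries (SD, n = 4 each). The summed value of 11 markers of other cell types ranged from 271 to 979.6 in SW480, and the range of 22222 to 32415 in HT29 was almost all *LYZ* (22198 to 32382). This sum overlapped between SCR and silenced libraries, at 271 to 967 and 337 to 979.6 in SW480 and at 22222 to 32415 and 24515 to 32278 in HT29. Of the epithelial markers, *KRT20* rose in silenced SW480 libraries (log2 difference 2.74, limma's adjusted p = 0.00698), and of the markers of other cell types tested in HT29 (*COL1A1* and *LYZ*), *COL1A1* had a log2 difference of 1.17 (limma's adjusted p = 0.408, below 0.05 unadjusted). The part of *KRT20*, *CDX2* and *COL1A1* in the results below was not tested.

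The circuit members differed widely in level. Per kilobase of median annotated transcript, and within SCR libraries, *ATF4* had the highest median in both lines, with 2437 normalized reads per kb in HT29 and 3384 in SW480. The order that followed in HT29 was *DDIT3*, *CEBPB*, *TRIB3*, *CHAC1*, *ATF3*, *CEBPG*, *ATF5* and *NUPR1*. In SW480 it was *TRIB3*, *DDIT3*, *CEBPB*, *ATF3*, *ATF5*, *CEBPG*, *CHAC1* and *NUPR1*. Most neighbours in these orders overlapped over the SCR libraries. The exceptions were *CEBPG* above *ATF5* and *ATF5* above *NUPR1* in HT29, and *ATF4* above *TRIB3* and *CHAC1* above *NUPR1* in SW480. *NUPR1*, a small stress-induced chromatin regulator (chromosome 16, 28532708 to 28539174), was close to the lower limit of these libraries, with values between 2.58 and 29.7 in HT29 and between 0 and 19.3 in SW480.

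**Figure D1:**
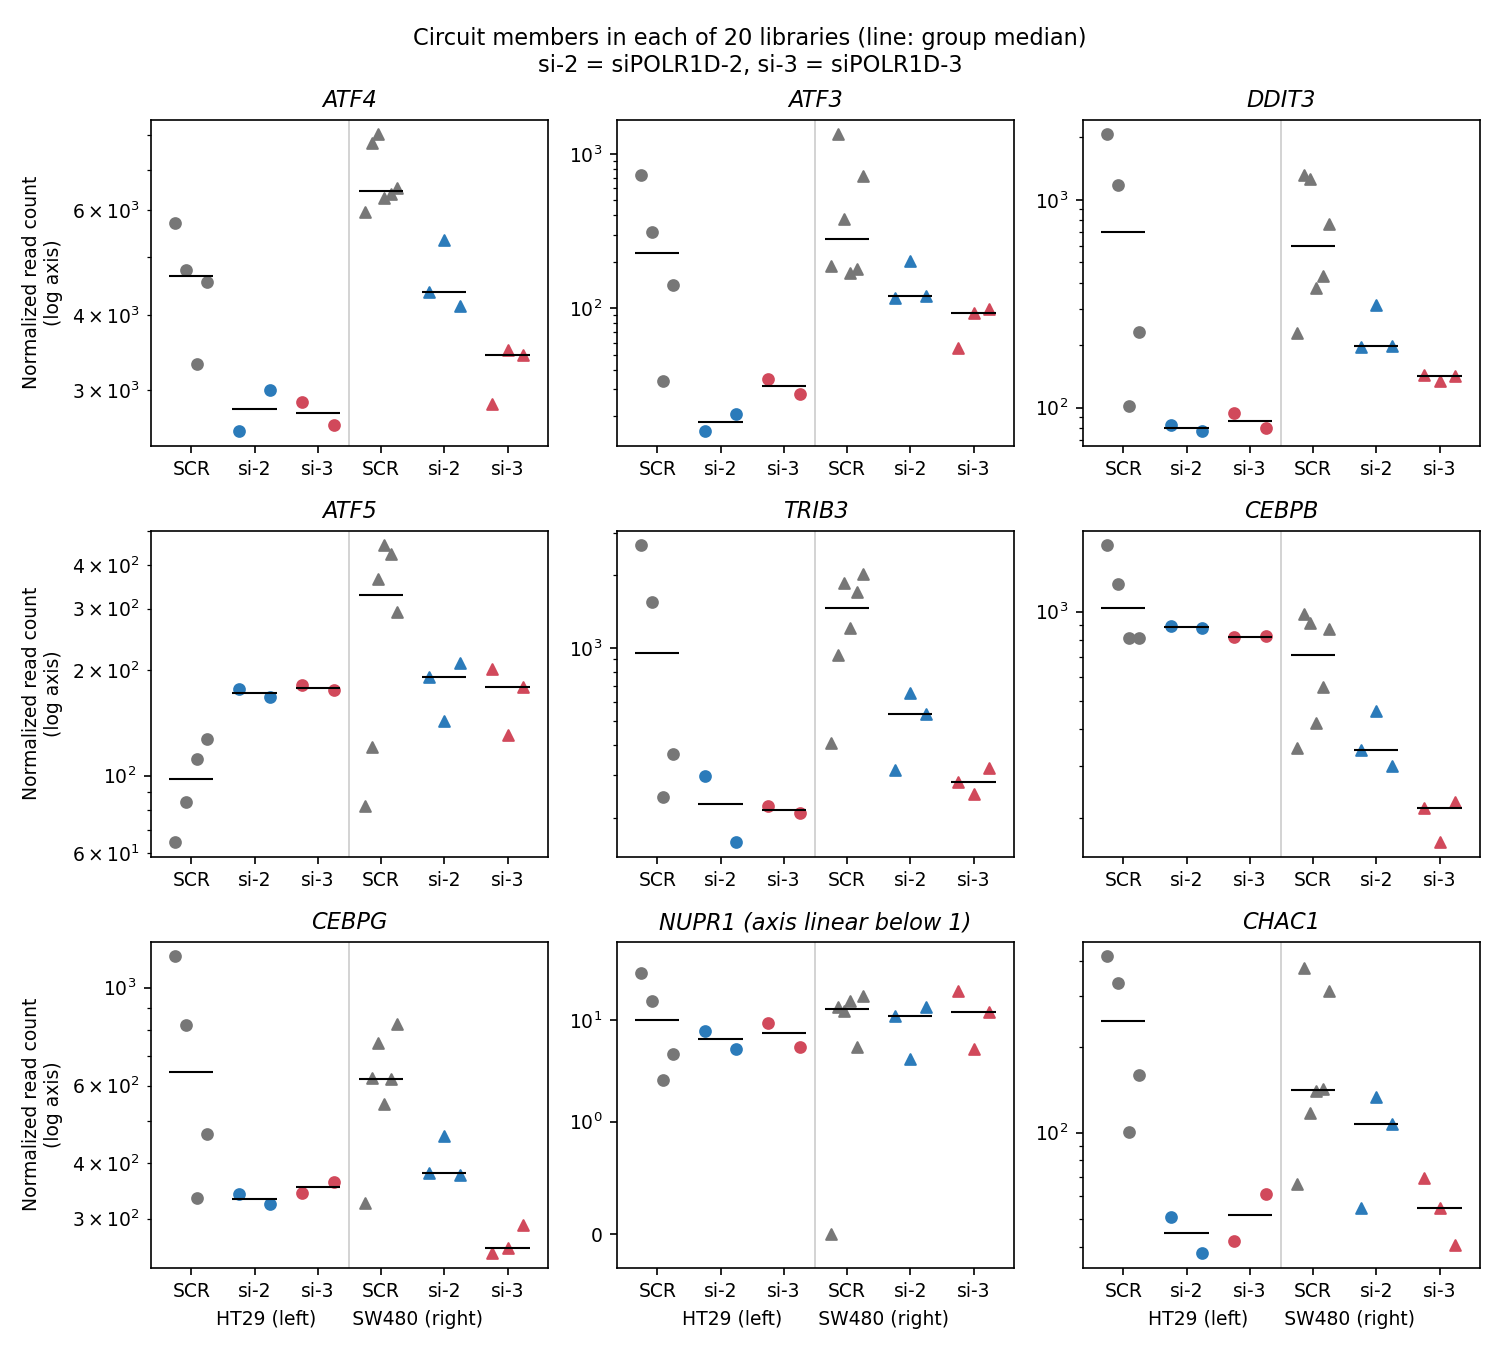
Normalized read count (log axis, except that the axis of NUPR1 is linear below 1) of each circuit member in each of the 20 libraries, HT29 as circles on the left and SW480 as triangles on the right of each panel, SCR in grey, siPOLR1D-2 in blue and siPOLR1D-3 in red, with a line at the group median. ATF4 in silenced libraries lies below every SCR library in both lines, and ATF5 in HT29 lies above.

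*ATF4*, the central activator of the circuit (chromosome 22, 39519695 to 39522685 in GRCh38, with no overlapping gene), was the only member whose silenced and SCR libraries did not overlap in either line. In HT29 the SCR libraries held 5698, 4757, 3308 and 4553 normalized reads, the siPOLR1D-2 libraries 2559.7 and 3002, and the siPOLR1D-3 libraries 2867 and 2619.8. In SW480 the SCR libraries ranged from 5961 through a median of 6464 to 8030.2, and the silenced libraries from 2839 through 3818 to 5347. All 10 silenced libraries were thus below all controls of their line, and SCR replicate 3 was the lowest control in HT29. The log2 difference between silenced and SCR libraries was -0.71 (SE 0.16) in HT29 and -0.81 (SE 0.14) in SW480, a 1.63-fold and a 1.76-fold lower level. Without SCR replicates 1 and 2 the HT29 difference was -0.49, and within the SW480 sides it was -0.57 on the first and -0.89 on the second. In RNA of a whole culture, fewer cells with the transcript and less transcript per cell cannot be told apart. The processed copies *ATF4P1* to *ATF4P4*, which could share reads with *ATF4*, held at most 17.2 normalized reads in any library (*ATF4P3* in SW480).

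*DDIT3* encodes CHOP, a C/EBP family protein that ATF4 induces and that is known to promote cell death under lasting stress (chromosome 12, 57516588 to 57521737, minus strand). In HT29 the SCR libraries held 2061, 1175, 102 and 231 normalized reads, the siPOLR1D-2 libraries 82.4 and 77.3, and the siPOLR1D-3 libraries 94.1 and 79.5. The groups did not overlap, but SCR replicate 3, at 102, was close to the highest silenced library. In SW480 the SCR libraries ranged from 228 through 597 to 1309 and the silenced libraries from 135 through 169.6 to 311. Of the 6 silenced SW480 libraries, 5 were below every control, and siPOLR1D-2 replicate 2 was above SCR replicate 1. The log2 difference was -2.55 (SE 0.80) in HT29 and -1.74 (SE 0.40) in SW480. The HT29 value was -0.88 without SCR replicates 1 and 2, whereas the SW480 value was -1.54 on the first side and -1.70 on the second. *DDIT3* overlaps *MARS*, which held between 4078 and 10954 normalized reads in HT29 and between 5998 and 13399 in SW480, and whether reads were assigned by strand is not given in the sources used here.

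*ATF3*, a bZIP factor of the early stress response that acts mostly as a repressor (chromosome 1, 212565334 to 212620777), had a highest HT29 control 21.3-fold over the lowest. The HT29 SCR libraries held 725, 314, 34.0 and 142 normalized reads, the siPOLR1D-2 libraries 16.04 and 20.6, and the siPOLR1D-3 libraries 34.6 and 27.7. In SW480 the SCR libraries ranged from 169.8 through 283 to 1337 and the silenced libraries from 54.9 through 108 to 202. The groups met in both lines, since 1 silenced library in each reached past the lowest control. That library held 34.6 against 34.0 in HT29, and in SW480 it held 202 against controls at 169.8, 178 and 188. The log2 difference was -2.89 (SE 0.77) in HT29 and -1.74 (SE 0.49) in SW480, and -1.52 in HT29 without SCR replicates 1 and 2. Its promoter window with the composite element is the one printed above.

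*ATF5*, a bZIP factor that like ATF4 is controlled by translation and is known for its part in the mitochondrial stress response (chromosome 19, 49928702 to 49933935), was the exception of the circuit in HT29. There the SCR libraries held 64.6, 83.8, 111 and 127 normalized reads, the siPOLR1D-2 libraries 177 and 168, and the siPOLR1D-3 libraries 181 and 176. All 4 silenced libraries were above every control, with a log2 difference of 0.90 (SE 0.22), or 0.55 without SCR replicates 1 and 2. In SW480 the SCR libraries ranged from 81.8 through 328 to 454 and the silenced libraries from 130.2 through 185 to 209.8. Here all 6 silenced libraries were below the control median but inside the range of the controls, and the log2 difference was -0.49 (SE 0.39). The SW480 value rested on the side, with 0.11 on the first side and -1.12 on the second. On the first side the SCR libraries held 81.8, 120.3 and 364, around the siPOLR1D-2 values of 191 and 143, whereas on the second the SCR values of 454, 430.2 and 292 were above all 4 silenced libraries (130.2 to 209.8). *ATF5* overlaps *NUP62*, which held between 2015 and 4697 normalized reads over both lines.

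*CEBPB* and *CEBPG* encode C/EBP proteins that form dimers with ATF4. *CEBPB* is also a factor of inflammation and differentiation (chromosome 20, 50190734 to 50192689), and *CEBPG* is known as a partner of ATF4 at genes of amino acid and glutathione metabolism (chromosome 19, 33373330 to 33382686). For *CEBPB* the HT29 SCR libraries held 1674, 1240.3, 812 and 815 normalized reads and the 4 silenced libraries between 818 and 893, so that the silenced libraries lay just above SCR replicates 3 and 4. In SW480 its SCR libraries ranged from 345 through 714 to 985 and its silenced libraries from 166 through 264 to 459, and 5 of 6 silenced libraries were below every control. The log2 difference of *CEBPB* was -0.34 (SE 0.22) in HT29 and -1.22 (SE 0.30) in SW480, or -0.78 on the first SW480 side and -1.40 on the second. It was 0.07 in HT29 without SCR replicates 1 and 2. This was the member whose HT29 difference changed sign without those libraries. For *CEBPG* the HT29 SCR libraries held 1176, 825, 334 and 465 normalized reads and the silenced libraries between 324 and 364. In SW480 its SCR libraries ranged from 326 through 623 to 829 and its silenced libraries from 251 through 334 to 461. SCR replicate 3 of HT29 and SCR replicate 1 of SW480 lay among the silenced libraries. The log2 difference of *CEBPG* was -0.86 (SE 0.34) in HT29, or -0.20 without SCR replicates 1 and 2, and -0.85 (SE 0.22) in SW480, or -0.35 on the first side and -1.17 on the second.

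*TRIB3*, a pseudokinase that ATF4 and CHOP induce and that restrains both (chromosome 20, 362835 to 397559), followed the same pattern in the controls. The HT29 SCR libraries held 2660.0, 1553, 243 and 365 normalized reads, the siPOLR1D-2 libraries 297 and 159, and the siPOLR1D-3 libraries 222 and 208. In SW480 the SCR libraries ranged from 408 through 1464 to 2035 and the silenced libraries from 249 through 317 to 656. In each line the lowest control (SCR replicate 3 in HT29 and SCR replicate 1 in SW480) lay inside the range of the silenced libraries. The log2 difference was -1.84 (SE 0.67) in HT29 and -1.70 (SE 0.37) in SW480. It was -0.46 in HT29 without SCR replicates 1 and 2, and in SW480 it was -0.97 on the first side and -2.28 on the second.

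*CHAC1*, an enzyme that breaks down glutathione and is a target of ATF4 and ATF3 (chromosome 15, 40952962 to 40956519), had 4 HT29 controls at 414, 333, 100.4 and 159.8 normalized reads. The siPOLR1D-2 libraries held 50.9 and 38.0 and the siPOLR1D-3 libraries 41.7 and 61.1. All 4 silenced HT29 libraries were below every control, and the difference of -2.18 (SE 0.41, log2) was still -1.41 without SCR replicates 1 and 2. In SW480 the SCR libraries ranged from 66.4 through 141 to 378 and the silenced libraries from 40.4 through 62.1 to 133, with 3 of 6 silenced libraries below every control. The log2 difference there was -1.20 (SE 0.41), or -0.74 on the first side and -1.52 on the second. For *NUPR1* the groups overlapped in both lines. The log2 difference in SW480 was 0.33 (SE 0.67), and no difference was computed in HT29, where *NUPR1* reached a value of 10 in too few libraries.

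**Figure D2:**
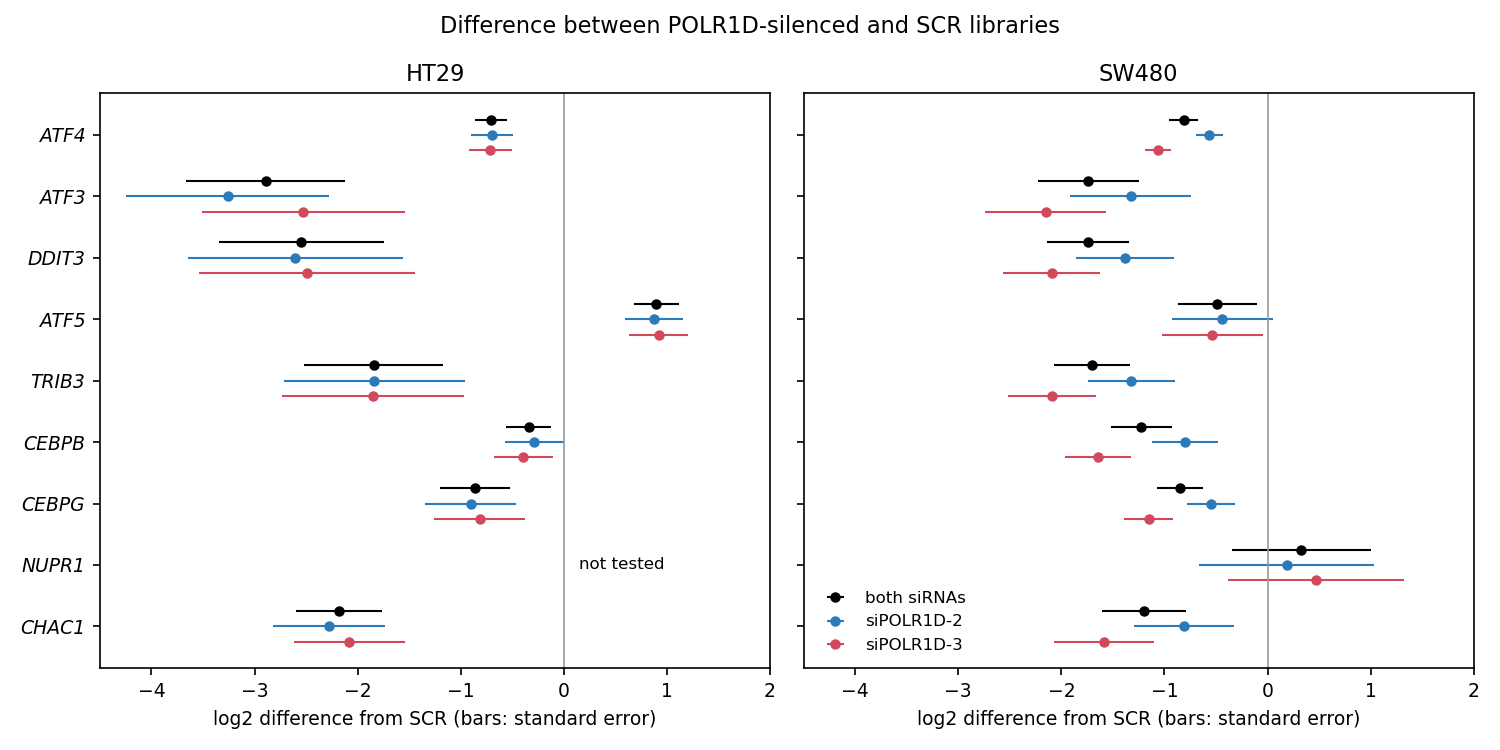
Log2 difference from SCR for each member in HT29 (left) and SW480 (right), for both siRNAs together (black), siPOLR1D-2 (blue) and siPOLR1D-3 (red), with bars for the standard error. All values but those of ATF5 in HT29 and NUPR1 in SW480 are below 0.

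In limma's fit of all genes, 6 of the 9 members were below the adjusted threshold of 0.05 in SW480, all of them lower (*ATF4*, *ATF3*, *DDIT3*, *TRIB3*, *CEBPB* and *CEBPG*). Over all genes 6.73% of 15019 passed it in either direction (367 higher and 644 lower, but 557 higher and 298 lower with upper quartile scaling, which raised the median of all genes to 0.11), and 4.29% were lower. In HT29, 0 of the 8 members tested passed it, as did 0% of 13274 genes, with 1422 genes and 7 members at an unadjusted p under 0.05. With DESeq2 the study listed *ATF4*, *ATF3*, *DDIT3* and *CHAC1* as lower in both lines, so its calls differ from those here. As the members were chosen with this contrast known, nothing is read from these counts. Groups without overlap were found for 4 of the 8 tested members in HT29 and for 1 of 9 in SW480, against 6.89% and 4.57% of the genes tested. The SW480 count of 6 changed with single libraries and with the side, as did the count over all genes. It was 2 without SCR replicate 6 or without siPOLR1D-3 replicate 3, and 3 without SCR replicate 2 or 3, siPOLR1D-2 replicate 3 or siPOLR1D-3 replicate 1 or 2. On the second side alone it was 8, and on the first side alone it was 0 by limma, with 1 member at an unadjusted p under 0.05.

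Each siRNA against the same SCR libraries is given side by side. In SW480 the log2 difference was -0.56 with siPOLR1D-2 and -1.07 with siPOLR1D-3 for *ATF4*, -1.38 and -2.09 for *DDIT3*, and -1.33 and -2.15 for *ATF3*. It was -1.32 and -2.09 for *TRIB3*, -0.80 and -1.64 for *CEBPB*, -0.55 and -1.15 for *CEBPG*, and -0.81 and -1.58 for *CHAC1*. For *ATF5* it was -0.44 and -0.53, and for *NUPR1* 0.19 and 0.47. The siPOLR1D-3 value was thus the lower of the pair in 8 of the 9 members, beside 49.7% of all genes tested. Members that vary together are not separate results. In HT29 the values with siPOLR1D-2 and siPOLR1D-3 were -0.70 and -0.71 for *ATF4*, -2.60 and -2.49 for *DDIT3*, -3.26 and -2.53 for *ATF3*, and 0.87 and 0.92 for *ATF5*. They were -1.84 and -1.85 for *TRIB3*, -0.29 and -0.39 for *CEBPB*, -0.91 and -0.82 for *CEBPG*, and -2.28 and -2.08 for *CHAC1*. The siPOLR1D-3 value was the lower in 3 of the 8 members tested in HT29, beside 51.3% of all genes tested. The widest gap in HT29 was that of *ATF3*, where siPOLR1D-2 gave the lower value. With siPOLR1D-2 alone 1 member passed the threshold in SW480 and with siPOLR1D-3 alone 6 did, beside 8.16% and 6.6% of all genes. In HT29 the counts were 0 and 0, beside 0% and 0% of all genes by limma, with 579 and 1031 genes at an unadjusted p under 0.05.

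The difference between the siRNAs had no part in the choice of the members and was tested. In SW480, 0 of 9 members differed between siPOLR1D-3 and siPOLR1D-2 by limma, where 3.32% of all genes did (244 higher and 254 lower, but 197 and 81 with upper quartile scaling), and 3 members had an unadjusted p under 0.05, as did 3272 of the 15019 genes. *ATF4* had the smallest adjusted p of the members, at 4620 ± 641 normalized reads with siPOLR1D-2 and 3258 ± 364 with siPOLR1D-3 (SD, n = 3 each), with a log2 difference of -0.50 (95% confidence interval -0.82 to -0.18, limma's adjusted p = 0.0784). All 3 siPOLR1D-3 libraries (2839 to 3497) were below all 3 siPOLR1D-2 libraries (4138 to 5347). The same held for *ATF3*, *DDIT3*, *CEBPB* and *CEBPG*, so that 5 of the 9 members separated as lower and 0 as higher. Of all 15019 genes, 2570 separated as lower and 2608 as higher (34.5% in either direction). For *CEBPB* the log2 difference was -0.84 (interval -1.64 to -0.04, limma's adjusted p = 0.209), and for *CEBPG* -0.60 (interval -1.20 to -0.01, adjusted p = 0.2196 by limma). The interval for *DDIT3* (-1.89 to 0.47) and that for *TRIB3* (-1.83 to 0.30) include differences of more than 1 log2 unit, so these data do not show that the siRNAs act alike. The siPOLR1D-3 libraries all lay on the second side of SW480, and with the side as a covariate the difference became -0.40 for *DDIT3*, -1.21 for *TRIB3* and -0.78 for *ATF5*. In HT29, 0 of 8 members and 0% of all genes differed by limma, with 0 members and 207 genes at an unadjusted p under 0.05. The intervals there were wide, from -2.64 to 2.87 for *DDIT3* and from -0.56 to 0.53 for *ATF4*, with 2 libraries for each siRNA.

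Whether a member responded differently in the 2 lines was tested as an interaction over 12724 genes. By limma 0 of 8 members passed, as did 0.0393% of all genes (5 genes, 1092 at an unadjusted p under 0.05). *ATF5*, higher in silenced HT29 and lower in silenced SW480 libraries, had a difference of -1.38 log2 units between the responses (interval -2.48 to -0.28, limma's adjusted p = 0.441), the only member with an unadjusted p under 0.05. *CEBPG* had a difference of 0.01 (interval -0.84 to 0.86, limma's adjusted p = 0.994) and *ATF4* one of -0.11 (interval -0.57 to 0.35, limma's adjusted p = 0.946).

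The controls differed among themselves more in these genes than in most. Over the 4 HT29 SCR libraries the SD of log2 values had a median of 0.877 over the 8 members tested and of 0.318 over all genes tested. For *DDIT3* it was 2.01, exceeded by 0.761% of genes, with the highest control 20.1-fold over the lowest. For *ATF3* it was 1.86, with a 21.3-fold range, and for *TRIB3* 1.65, with a 10.9-fold range. *ATF4* varied far less, with an SD of 0.33 that 48.6% of genes exceeded. In the 4 silenced HT29 libraries the median over the members was 0.116, beside 0.196 over all genes. The wide spread in HT29 was thus found in the controls, whose replicates 1 and 2 held the high values of every member but *ATF5*, for which they held the low ones.

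**Figure D3:**
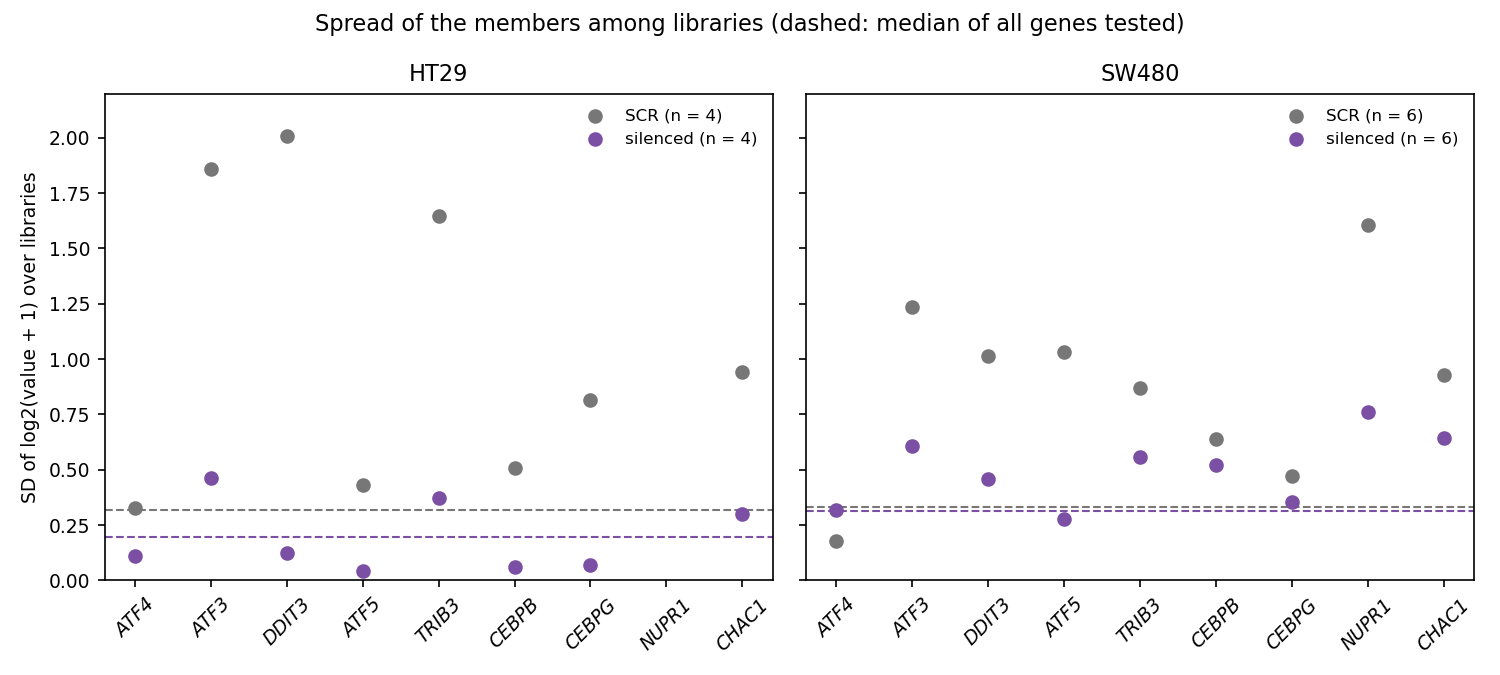
Standard deviation of log2(value + 1) of each member over the SCR libraries (grey) and the silenced libraries (purple) in HT29 (n = 4 and 4) and SW480 (n = 6 and 6), with dashed lines at the median over all genes tested. In HT29 DDIT3 reaches 2.01 among controls and 0.12 among silenced libraries.

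In SW480 the median SD of the 9 members was 0.926 among controls and 0.523 among silenced libraries, beside 0.332 and 0.315 over all genes. *ATF4* was the exception, with an SD of 0.18 in SCR and 0.32 in silenced libraries. SCR replicate 1 was the lowest control for *ATF4*, *DDIT3*, *ATF5*, *TRIB3*, *CEBPB*, *CEBPG*, *NUPR1* and *CHAC1*, and without it the median SD of the members in SCR was 0.598. Control replicates 2 and 6 held the highest values of *ATF3*, and replicates 2 and 3 those of *DDIT3*. Among these controls with high values, replicate 6 had the most estimated reads (27600000) and replicate 3 had 19100000. In HT29 the controls with high values had fewer estimated reads (14200000 and 16100000) than replicates 3 and 4 (21000000 and 20300000), and the part of depth in the result was not tested.

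**Figure D4:**
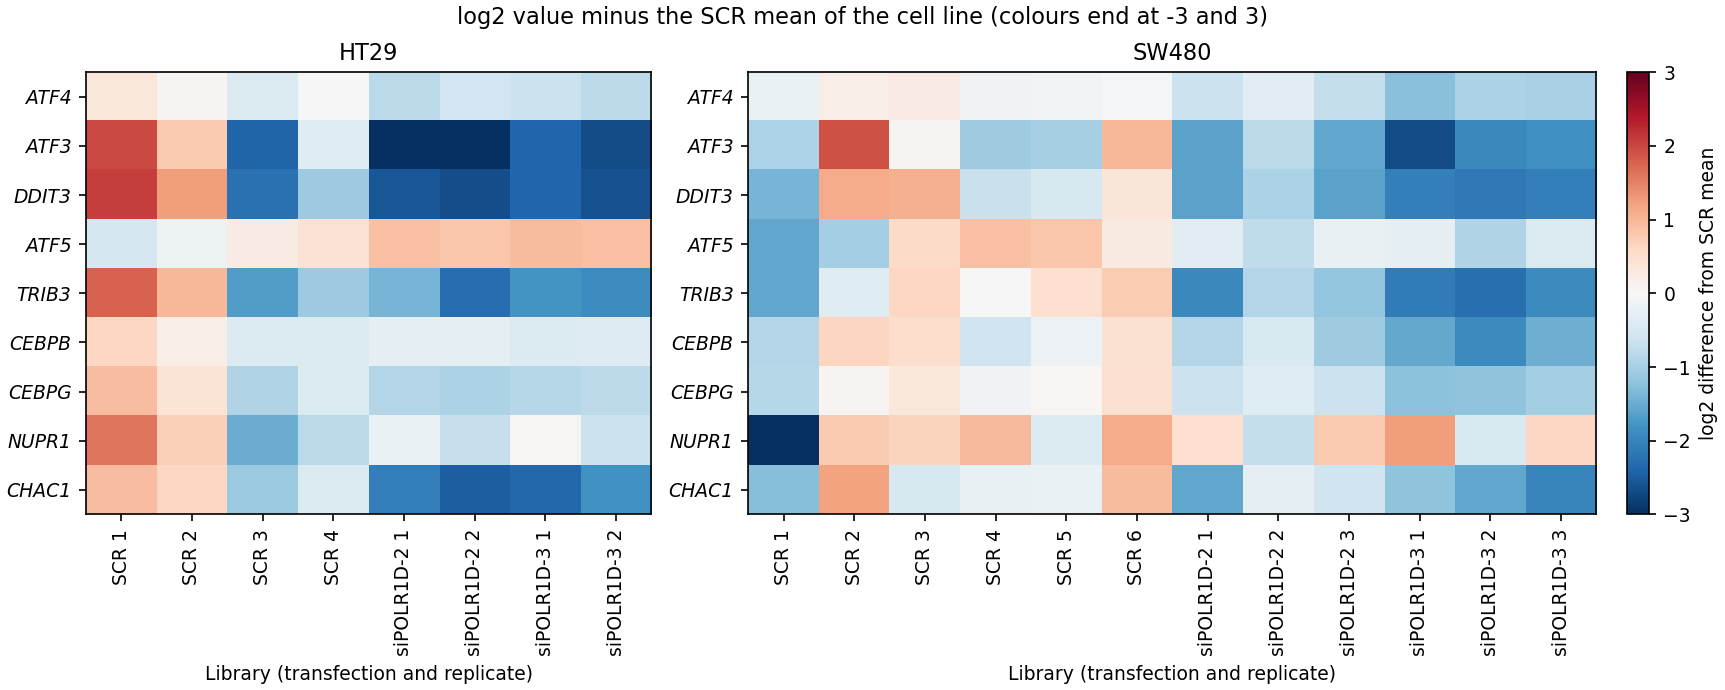
Log2 value of each member in each library minus the mean of the SCR libraries of the same cell line, from blue (lower) to red (higher), with colours ending at -3 and 3. HT29 SCR replicate 3 resembles the silenced libraries in ATF3, DDIT3 and TRIB3, and SW480 SCR replicate 1 in most members.

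Most members also followed *DDIT3* within groups, and *ATF4* less closely. Log2 values were centred on the mean of each cell line and siRNA, so that differences between groups were removed, and correlated over the 20 libraries, which share the normalization of their line. The r with *DDIT3* was 0.92 for *CEBPG*, 0.89 for *ATF3*, 0.85 for *CEBPB*, 0.84 for *TRIB3*, 0.82 for *ATF4* and 0.76 for *CHAC1*, and -0.17 for *ATF5*. Of 12723 genes, 0.055% were more alike to *DDIT3* than *CEBPG* was. These values over 20 libraries rest mostly on the controls. The SD of log2 *DDIT3* was 2.01 in HT29 SCR and 1.01 in SW480 SCR libraries, but at most 0.38 within the libraries of either siRNA. In SW480 alone (12 libraries) the values were lower for most members, with 0.78 for *CEBPG* and 0.56 for *TRIB3*, but 0.95 for *CEBPB*. In HT29 alone (8 libraries) they were 0.99 for *CEBPG* and -0.89 for *ATF5*, and there they rest on the 4 controls, as the silenced libraries hardly varied. The r with *ATF4* was 0.83 for *ATF3*, 0.73 for *CEBPG*, 0.68 for *CEBPB*, 0.59 for *TRIB3* and 0.50 for *CHAC1*, and -0.22 for *ATF5*. In SW480 alone it was 0.66 for *ATF3*, 0.35 for *TRIB3* and 0.31 for *CHAC1*. Of the 12723 genes, 0.275% were more alike to *ATF4* than *ATF3* was, 6.81% than *TRIB3* and 12.4% than *CHAC1*.

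Among genes outside the circuit, the 5 most like *DDIT3* were *PPP1R15A* (r = 0.99), *RNF41* (0.95), *STK40* (0.94), *HERPUD1* (0.94) and *GRB10* (0.93). *PPP1R15A* encodes GADD34, the phosphatase subunit that removes phosphate from eIF2, and *HERPUD1* encodes a protein of degradation at the endoplasmic reticulum. The 5 most like *ATF4* were *JMY* (0.92), *GTDC1* (0.90), *RAB5A* (0.90), *ZNF558* (0.90) and *NDEL1* (0.89). Of these 10, *HERPUD1* is also on the list of ATF4 targets and *PPP1R15A* on the list of CHOP targets used below. These r values are descriptions over 20 libraries that share the normalization of their line, without a test. Those with *DDIT3* rest mostly on the controls here too.

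Most known targets of ATF4 fell in SW480. The list of 38 targets was drawn up with earlier results of these data known, and 13 of them are also among the genes the study listed from these libraries, so their direction is not independent evidence. In SW480, 25 of the 37 targets tested passed the threshold as lower and 0 as higher by limma, and all 37 had a negative log2 difference, with a median of -0.86. Over all genes 4.29% passed as lower, 48.5% had a negative difference and the median was 0.01. *ASNS*, the enzyme that makes asparagine, fell from 11133 ± 4375 normalized reads in SCR to 3108 ± 704 in silenced libraries (SD, n = 6 each, log2 difference -1.79, SE 0.23, limma's adjusted p = 0.00166). *GARS*, the glycyl-tRNA synthetase, fell from 47057 ± 8244 to 24117 ± 3917 (-0.96, SE 0.14, limma's adjusted p = 0.00275). *GPT2*, a mitochondrial alanine transaminase, had a log2 difference of -0.96, and *SLC1A4*, a transporter of neutral amino acids, one of -0.95, and both passed as well. The count of 25 fell to between 14 and 16 without SCR replicate 6, siPOLR1D-2 replicate 3 or any of the siPOLR1D-3 libraries, beside 534 to 628 of all genes. On the first side alone it was 0 by limma, as over all genes, with 7 targets and 1520 genes at an unadjusted p under 0.05. In HT29, 0 of 35 targets passed by limma, 26 had an unadjusted p under 0.05 and 34 had a negative log2 difference, with a median of -1.08 beside 0.00 over all genes. The exception, named after its value was seen, was *ALDH1L2* at 1.25.

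The median target moved with the same libraries as the circuit. Relative to the mean of the HT29 controls it stood at 1.02 log2 units in SCR replicate 1 and at 0.31 in replicate 2, but at -0.91 in replicate 3 and -0.32 in replicate 4. The silenced HT29 libraries ranged from -1.15 to -0.94, so that SCR replicate 3 was next to them. In SW480 the controls ranged from -0.48 (replicate 1) to 0.28 (replicate 6) and the silenced libraries from -1.14 to -0.37. Between the siRNAs in SW480, 4 of 37 targets were lower with siPOLR1D-3 (*MTHFD2*, *SLC7A5*, *SLC6A9* and *EIF4EBP1*, named after their values were seen) and 0 higher. Of all 15019 genes, 254 were lower and 244 higher (3.32% in either direction).

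**Figure D5:**
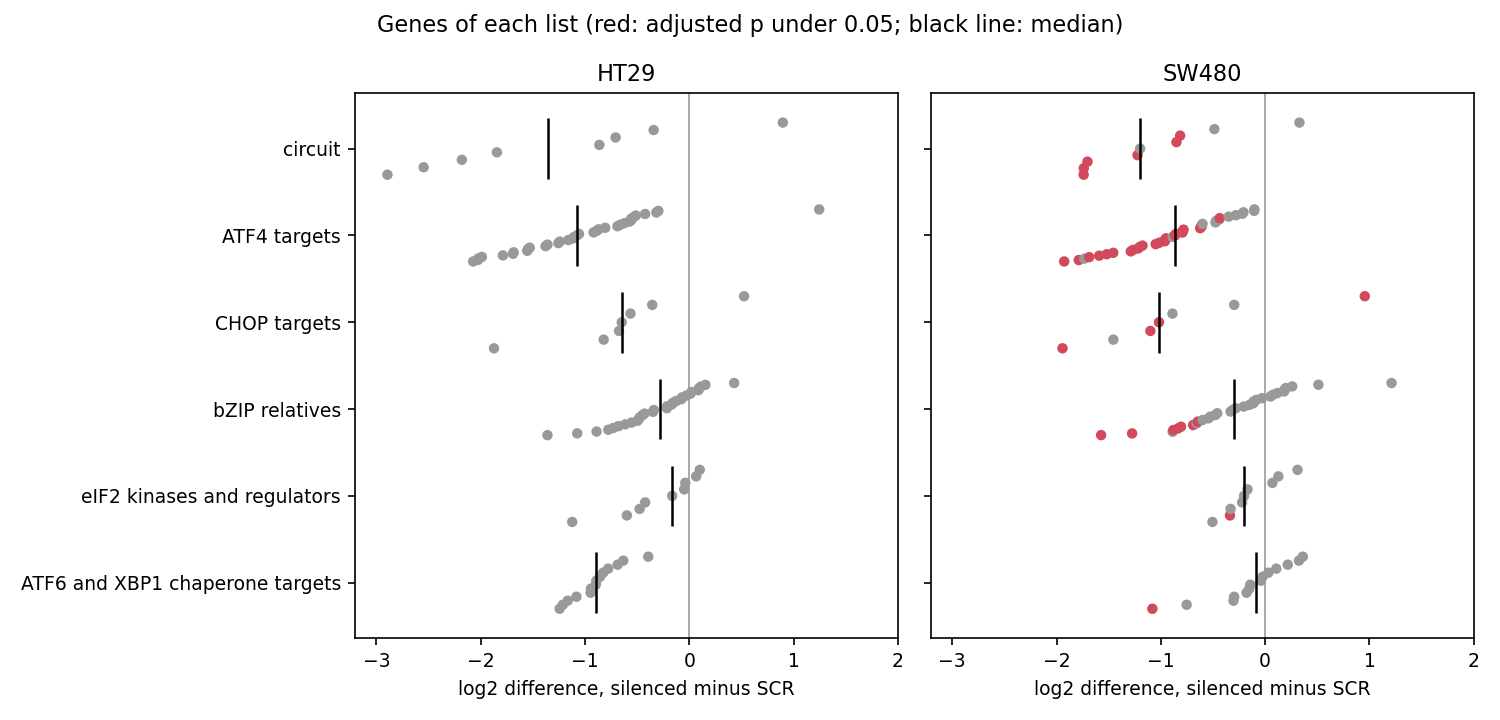
Log2 difference between silenced and SCR libraries for each tested gene of 6 lists in HT29 (left) and SW480 (right), red where the adjusted p is under 0.05, with a black line at the median of the list. The ATF4 targets have medians of -1.08 and -0.86, and the chaperone targets -0.89 and -0.09.

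The lists for other parts of the stress pathways were also drawn up with earlier results of these data known. Of 7 targets of CHOP, 3 passed as lower and 1 as higher in SW480, beside 6.73% of all genes in either direction. All 7 had an unadjusted p under 0.05 by limma there, as did 3478 of 15019 genes, and 6 of the 7 had a negative difference. *PPP1R15A* fell from 2392 ± 1158 to 559.95 ± 62.3 normalized reads (SD, n = 6 each, log2 difference -1.94, SE 0.28, limma's adjusted p = 0.00275), and *TNFRSF10B*, a death receptor, and *GADD45A*, a growth arrest gene, fell by 1.02 and 1.10 on the log2 scale. *BCL2L11*, which encodes the cell death protein BIM, rose by 0.96 (SE 0.17, limma's adjusted p = 0.00678). In HT29 the same 4 genes had log2 differences of -1.87, -0.67, -0.65 and 0.53, and 0 of the 7 passed by limma, with 3 at an unadjusted p under 0.05.

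Of 9 eIF2 kinases and regulators, 1 passed in SW480, beside 6.73% of all genes, a count too small to set the list apart. This was *EIF2AK4*, which encodes the amino acid sensor GCN2, with a log2 difference of -0.34 (SE 0.08, limma's adjusted p = 0.0245), and its HT29 value was 0.07. *EIF2AK3*, which encodes PERK, had -0.33 in SW480 and -1.12 in HT29 without passing in either. *PPP1R15B* (-0.51 in SW480) and *DELE1* (0.31) did not pass either, and 0 of the 9 passed in HT29 by limma, with 3 at an unadjusted p under 0.05.

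Of 14 chaperone targets of ATF6 and XBP1, which mark the endoplasmic reticulum branches outside ATF4, 1 passed in SW480, beside 6.73% of all genes, so that the count was near the background. This was *EDEM1*, at -1.08 (SE 0.20, limma's adjusted p = 0.008), and the list had a median of -0.09. The next 3 genes, *DNAJB9*, *SEL1L* and *DNAJC3*, had -0.75, -0.30 and -0.30 there. In HT29 all 14 were below 0 with a median of -0.89 and 0 passed by limma, with 0 at an unadjusted p under 0.05. This HT29 median moved with a single library, since relative to the mean of the controls the list stood at 1.81 log2 units in SCR replicate 1 and between -1.04 and -0.15 in the other 3 controls, whereas the silenced libraries ranged from -1.03 to -0.79.

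Of 35 other bZIP factors, 32 were tested in SW480, and 7 passed as lower and 0 as higher, with a median of -0.30, beside 4.29% of all genes lower. *XBP1*, the factor of endoplasmic reticulum stress, fell by 0.88 (SE 0.17), *CREB3L2* by 1.28 (SE 0.26), *MAFF* by 1.57 (SE 0.35) and *NFIL3* by 0.83 (SE 0.20) on the log2 scale, all by limma with adjusted p values of 0.0111, 0.0135, 0.019 and 0.0244. In HT29 their differences were -0.89, -0.73, -0.78 and -1.07, and 0 of 30 passed by limma, with 6 at an unadjusted p under 0.05. Of the paralogues of *TRIB3* and *CHAC1*, *TRIB1* and *TRIB2* had log2 differences of 0.38 (SE 0.41) and 0.40 (SE 0.27) in SW480, and *CHAC2* had -0.35 (SE 0.18), and 0 of these 3 passed by limma, with 0 at an unadjusted p under 0.05. In HT29 *TRIB1* had -0.19 and *CHAC2* 0.42, and neither passed.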

How the data were processed

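RNA of HT29 and SW480 cells was captured for exons and sequenced in 20 libraries, grouped by cell line and siRNA from the labels. Per the submitters' processing notes, reads were checked with FastQC 0.11.5, quantified with kallisto 0.44.0 and normalized with DESeq2 1.24.0. The transcript index and any strand setting are not given in the sources used here. The deposited signal values are read counts that the authors divided by size factors, separately for each cell line. They are not whole numbers, no whole reads could be recovered, and a count test was therefore not used. Depth was estimated as the total divided by the most frequent low value, so no counting intervals are given.

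Rows sharing a name were summed (40117 rows to 36346 names). The test took genes that reached 10 in a number of libraries no smaller than the smaller group, on log2(value + 1) with limma 3.58.1 (R 4.3.3), with an empirical Bayes trend and Benjamini-Hochberg adjustment over all of them at 0.05, two-sided. Log2 differences are on this scale, which understates changes of low genes. Confidence intervals are 95% intervals of that fit. Standard errors and p-values measure the spread between these libraries.

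The members and the gene lists were chosen with earlier results of these data known, so calls among the members in silenced against SCR libraries are counts beside the background and no evidence about the members. The named genes were all members, up to 4 genes of each list with the smallest adjusted p in SW480, the 5 genes most like *ATF4* and the 5 most like *DDIT3*, and *POLR1D*. Positions and transcript lengths are from GENCODE release 29 (GRCh38), which may not be the authors' annotation. Alternatives covered scaling, pseudocounts, filters, the empirical Bayes settings, the replicate number as a block, the side of SW480 and leaving out each library. The fit without HT29 SCR replicates 1 and 2 was added after seeing the data.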

Additional observations from a re-analysis of the deposited data

Results flagged for a closer look

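*DDIT3* in siPOLR1D-2 replicate 2 of SW480 held 311 normalized reads and lay far above the other 5 silenced libraries of that line (135 to 197), its gap to the nearest being 0.644 of the range of the group. It was the only value set apart in this way in 40 groups of 4 to 6 libraries (the members and *POLR1D*, SCR and silenced, in both lines), where chance sets apart about 1 in 20 groups.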

How the results depend on the processing

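Of the 6 members below the threshold in SW480, the count was 4 to 6 under other scalings, pseudocounts, filters and empirical Bayes settings, 6 with the side as a covariate, 8 on the second side alone, 0 on the first side alone, and from 2 (without SCR replicate 6 or siPOLR1D-3 replicate 3) to 7 (without SCR replicate 1) with a library left out. As the members were chosen on this contrast, these counts say nothing of stability. The difference of *ATF5* was negative in 23 of 25 alternatives and that of *NUPR1* positive in 22 of 24. The median SD of the members among SW480 controls ranged from 0.598 (without SCR replicate 1) to 1.03. Upper quartile scaling moved the median of all genes to 0.11 in SW480 and to 0.14 between its siRNAs, where *ATF4* then stood at -0.36. Over all genes in SW480 the 1011 calls became 666 with no filter, 1993 with the side as a covariate, 1939 and 0 on the second and first side alone, and 534 to 1283 with a library left out. Between the siRNAs the 498 calls became 278 with upper quartile scaling, 289 with no filter, 293 with no trend and 39 to 777 over all alternatives. For the interaction the 5 calls became 2 to 17 with a library left out. In HT29 they stayed at 0 or 1 with a library left out.

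The replicate numbers were checked for pairing. Deviations of same-numbered libraries correlated at -0.174 to 0.038 in HT29 (4 pairs) and at -0.595 to 0.391 in SW480 (6 pairs), and the main fit used no pairing. The check covered same-numbered libraries alone, and the control libraries with higher numbers have no such partner. Other layouts, such as shared runs, were not tested. With the number as a replicate block, members called were 0 in SW480 (6 at an unadjusted p under 0.05 by limma) and 8 in HT29, where only SCR replicates 1 and 2 share numbers with silenced libraries. All genes called were 0 and 735, ATF4 targets 0 and 32, and 97 genes for the interaction. A control without a same-numbered silenced library adds nothing to the difference in that fit. In HT29 the block fit thus set the silenced libraries against SCR replicates 1 and 2 alone, which held the high values of most members. There *DDIT3* stood at -4.21, beside -2.55 in the main fit and -0.88 without those replicates. In SW480 the controls with higher numbers dropped out in the same way. The block counts are thus no test of pairing.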
